A study of Homo sapiens with 26 samples.

Results

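The genes described here are 10 of the core G1 cyclins, cyclin-dependent kinases and kinase inhibitors, out of 58039 genes in the count table. They were chosen by name, as the cyclin genes CCND1, CCND3, CCNE1 and CCNE2, the kinase genes CDK2, CDK4 and CDK6, and the inhibitor genes CDKN1B, CDKN2B and CDKN2C. All 10 passed the filter on low counts. The 26 RNA-seq libraries of the study fall into 9 groups, all made from HCT116, a cell line from a human colorectal carcinoma. The control group was unedited HCT116 cells (n = 3). The labels name CRISPR knockouts of CDK8 (CDK8KO), of CDK19 (CDK19KO) and of the pair together (DKO). Each knockout comes in a subline C1 and a subline C2, with 3 libraries per subline. JQ1, a small molecule that displaces BET bromodomain proteins from acetylated chromatin, was given to control cells (control+JQ1, n = 3) and to DKO-C1 (DKO-C1+JQ1, n = 2). Every group is the same cell line, and for JQ1 neither dose nor time is given in the sources used here. The labels do not say that the replicates of a group were separate cultures, so p-values measure the spread between these libraries only.

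Passage through G1 depends on cyclin-dependent kinases that act in turn. D-type cyclins bind CDK4 and CDK6, and these complexes begin the phosphorylation of the retinoblastoma protein, which otherwise holds E2F transcription factors inactive. E-type cyclins, whose genes are E2F targets, then bind CDK2 and carry the cell into S phase. The INK4 inhibitors, among them the products of CDKN2B (p15) and CDKN2C (p18), bind CDK4 and CDK6 directly and keep D cyclins off. CDKN1B (p27) belongs to the other inhibitor family and blocks cyclin E with CDK2. In colorectal cells cyclin D1 is best known as a target of Wnt and growth factor signalling. CDK8 and CDK19 are not cell cycle kinases of this kind: either can serve as the kinase subunit of Mediator, a complex that connects transcription factors with RNA polymerase II.

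The promoters of 4 genes are shown because their levels moved most or in opposite directions in the comparisons below: CDK6 and CDKN2C with the largest rises in DKO, CCNE1 as the gene that fell there, and CDKN2B with the largest rise under JQ1. Each sequence is the part of the 250 bases before a RefSeq start site (GRCh38.p14) that lies outside annotated exons, read 5′ to 3′ on the gene's strand. Capitals mark an E-box (CACGTG) or a GC box (GGGCGG, or CCGCCC on the other strand).
CDK6, chr7:92836595-92836823, minus strand: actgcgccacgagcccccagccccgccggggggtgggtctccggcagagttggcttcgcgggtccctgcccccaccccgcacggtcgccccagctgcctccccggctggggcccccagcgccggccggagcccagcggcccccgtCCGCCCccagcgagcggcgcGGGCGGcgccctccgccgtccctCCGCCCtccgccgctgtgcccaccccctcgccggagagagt
CDKN2C, chr1:50960495-50960744, plus strand: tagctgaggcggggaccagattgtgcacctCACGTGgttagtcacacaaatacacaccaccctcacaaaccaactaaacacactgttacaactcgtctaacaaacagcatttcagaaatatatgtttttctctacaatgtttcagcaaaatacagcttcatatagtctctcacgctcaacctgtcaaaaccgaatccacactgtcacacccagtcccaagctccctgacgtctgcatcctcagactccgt
CCNE1, chr19:29811741-29811897, plus strand: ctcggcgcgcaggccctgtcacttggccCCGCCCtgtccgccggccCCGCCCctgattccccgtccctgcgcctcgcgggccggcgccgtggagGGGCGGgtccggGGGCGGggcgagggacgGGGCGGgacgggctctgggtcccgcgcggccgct
CDKN2B, chr9:22009364-22009555, minus strand: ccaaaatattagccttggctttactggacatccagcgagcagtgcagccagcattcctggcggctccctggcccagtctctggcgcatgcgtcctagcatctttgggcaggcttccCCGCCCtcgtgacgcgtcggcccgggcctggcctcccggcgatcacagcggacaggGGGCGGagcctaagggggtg
The CDK6 window held 3 GC box matches, the CCNE1 window 7 in all 250 bases, the CDKN2B window 2, and this CDKN2C window 1 E-box and no GC box. The G+C share was 80.0% for this start of CDK6, 81.2% for CCNE1, 66.4% for CDKN2B and 45.6% for this start of CDKN2C. Other starts of a gene differed: the second CDK6 start had 0 GC boxes (67.6% G+C), and the other CDKN2C starts had 5 GC boxes (77.2%), and 1 GC box with 1 E-box (48.8%). In all, 7 of the 10 genes had 12 promoters in the RefSeq table. Of these promoters, 9 held a GC box, against 42.639% of the 35116 promoters in the table, and 3 held an E-box, against 6.345%. The 4 E2F words searched on both strands (TTTCCCGC, TTTGGCGC, TTTCGCGC and TTTGCCGC) were in 0 of the 12, against 2.788% of all. These are matches of letters in a short window and do not show that a factor binds there.

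Libraries were of even depth, with 17700864 to 19093094 gene counts. Levels are given as CPM, the counts of a gene relative to the library total, with totals scaled by TMM, which sets most genes to no change, so every rise or fall below is relative to the bulk of the genes. All libraries also held counts of ERCC spike-in RNA, from 1.055% to 1.252% of gene counts in control and from 1.801% to 4.564% in the knockout groups without JQ1. Scaling by those counts instead shifted the median gene by -1.22 on the log2 scale for CDK8KO over control, by -1.65 for CDK19KO and by -0.90 for DKO, and by -0.37 and -0.27 with JQ1 in control and in DKO-C1. The labels name the spike-in for control and DKO libraries only, and how it was dosed is not given in the sources used here. In bulk RNA, a smaller number of cells and less RNA per cell cannot be told apart. The mitochondrial share of gene counts was 6.897% to 8.242% in control, 7.418% to 8.618% in CDK8KO, 4.97% to 6.371% in CDK19KO and 4.547% to 5.723% in DKO, and its part in the results was not tested. Of 7 epithelial markers 6 reached 1 CPM, as did 2 of 6 fibroblast markers, 0 of 4 leukocyte markers and 0 of 3 endothelial markers. CDK8 RNA was still present in CDK8KO (-0.17 ± 0.0473, log2 fold change ± SE) and DKO (-0.41 ± 0.0477), and of the CDK8KO sublines C1 was called (-0.20 ± 0.0552) and C2 was not (-0.13 ± 0.0548, edgeR adjusted p = 0.0543). CDK19 RNA was lower in the mean of CDK19KO (-0.32 ± 0.0658), with a called fall in C1 (-0.53 ± 0.0784) and -0.10 ± 0.0752 in C2 (edgeR adjusted p = 0.279). It was higher in CDK8KO (0.33 ± 0.0634) and DKO (0.39 ± 0.0631), rises smaller than the shift of the median gene under the ERCC scaling. The edited sites are not in the labels, so gene counts do not check the edits. HEXIM1, a common marker of BET inhibition, rose with JQ1 in control (1.24 ± 0.0478) and in DKO-C1 (1.19 ± 0.0524). The DKO-C2 columns carry a clone number that no sample title has and were taken as DKO-C2 by elimination, and 1 column of DKO-C1+JQ1 was matched to its group only.

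Divided by exon length, the control level was highest for CCND1, at 189 ± 28.2 CPM per kilobase (SD, n = 3). CDK4 followed at 37.8 ± 1.55, then CCNE1 at 30.7 ± 2.17 and CDK2 at 28.2 ± 0.858 CPM per kilobase. The ± ranges of CCNE1 and CDK2 overlapped. CDKN1B (12.7 ± 0.310), CDK6 (10.98 ± 0.861) and CCND3 (5.96 ± 0.392) were in the middle of the order. CCNE2 (3.70 ± 0.0771) and CDKN2C (2.95 ± 0.828) did not differ beyond their spread, and CDKN2B was lowest at 0.834 ± 0.144 CPM per kilobase. Cyclin D1 RNA was the most abundant and p15 RNA the least in all 9 groups. The order changed most for CDK6, which was the sixth gene in control and reached 35.8 ± 2.47 CPM per kilobase in DKO-C2, close to CDK4 at 36.3 ± 2.65. Exons of another gene on the opposite strand cover 43.2% of the exon bases of CDK4 (TSPAN31), 37.0% of those of CCNE2 (INTS8), 14.5% of those of CDK2 (AC025162.1) and 10.3% of those of CCND1 (LTO1). The strand setting of the counting is not given in the sources used here, so reads of each pair cannot be told apart. The counts assigned to the overlapping gene were 0 in every library for AC025162.1, 130 to 229 for TSPAN31 and 279 to 381 for LTO1, each below those of its partner. INTS8 had 1492 to 2739 counts, more than CCNE2 in every library.

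**Figure D1:**
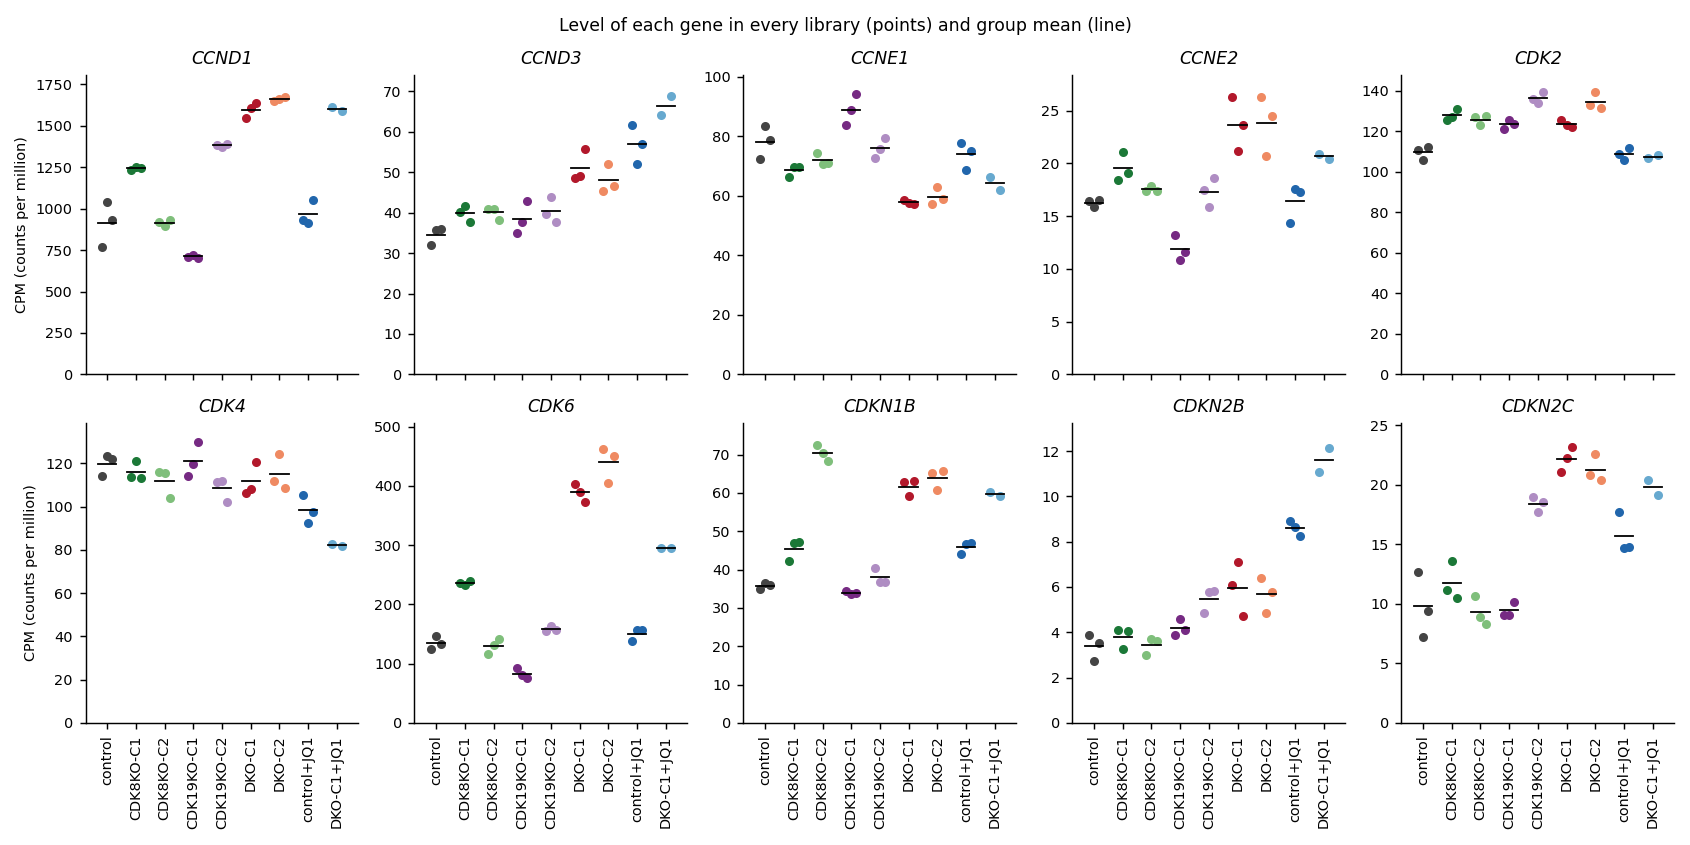
Level of each of the 10 genes in CPM (linear axis from 0) in all 26 libraries, with 1 point per library and a line at the group mean. DKO libraries stood above all others without JQ1 for CCND1, CCND3, CDK6 and CDKN2C and below them for CCNE1, whereas CDK4 overlapped control in both DKO sublines. The share of all tested genes that separate in this way was not computed.

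In DKO, the D cyclins, CCNE2, CDK2, CDK6 and all 3 inhibitors rose relative to the bulk of the genes, CCNE1 fell, and CDK4 did not pass the test. That made 8 of 10 genes higher, where 29.5% of the 17198 tested genes were, and 1 lower, where 32.1% were. The genes were chosen with earlier results of these data known, so such shares are given as a description only. A gene was called at an adjusted p under 0.05 (edgeR's quasi-likelihood test, Benjamini-Hochberg over all tested genes, two-sided). The median log2 fold change was 0.66 over the 10 genes and -0.02 over all tested genes. With the ERCC scaling, where 3.4% of tested genes were higher in DKO and 83.3% lower, CDK6 stayed above control (0.71). CDKN2C (0.26, adjusted p = 0.0837 in edgeR) was no longer called. The rises of CCND3 (-0.38), CCNE2 (-0.36) and CDK2 (-0.66) turned into called falls. CDK4 (-0.98), not called with TMM scaling, was then called lower, and CCNE1 (-1.31) stayed lower. CCND1 (-0.07), CDKN1B (-0.09) and CDKN2B (-0.12) also had values below control, but these were not called.

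CCND1, which encodes cyclin D1, measured 767, 1038 and 929.9 CPM in control, 1547, 1610.1 and 1637 in DKO-C1 and 1652, 1665 and 1675 in DKO-C2. Every DKO library was above every control library. The log2 fold change was 0.84 ± 0.0538 (edgeR adjusted p = 2.15e-16), a 1.79-fold rise. CCND3, the gene of cyclin D3, gave 31.9, 35.7 and 36.1 CPM in control, 48.5, 49.1 and 55.7 in DKO-C1 and 45.4, 52.2 and 46.5 in DKO-C2. Its ranges did not overlap either, and the log2 fold change was 0.52 ± 0.0665 (edgeR adjusted p = 1.43e-08).

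The E cyclins went opposite ways. CCNE1, the gene of cyclin E1, had 72.5, 83.6 and 78.6 CPM in control against 58.7, 57.6 and 57.4 in DKO-C1 and 57.3, 63.0 and 58.8 in DKO-C2. Every DKO library was below control (-0.41 ± 0.0494, edgeR adjusted p = 3.26e-09). CCNE2, the gene of cyclin E2, had 16.4, 15.9 and 16.5 CPM in control against 26.3, 21.2 and 23.6 in DKO-C1 and 26.3, 20.7 and 24.5 in DKO-C2. Every DKO library was above control (0.54 ± 0.0782, edgeR adjusted p = 1.57e-07).

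Among the kinases, CDK6 changed most of all 10 genes. Control libraries had 125, 146 and 133 CPM, DKO-C1 had 403, 390.2 and 373, and DKO-C2 had 463, 405 and 450.4. The lowest DKO library, at 373 CPM, lay far above the highest control library, at 146 CPM. The rise was 3.07-fold (log2 1.62 ± 0.0599, edgeR adjusted p = 7.06e-24). CDK4, the partner kinase that shares the D cyclins with CDK6, had 114, 123 and 122 CPM in control, 106, 108 and 121 in DKO-C1 and 112, 124 and 108 in DKO-C2. These ranges overlapped, and the log2 difference was -0.08 ± 0.0522 (edgeR adjusted p = 0.178). CDK2, the kinase of the E cyclins, rose slightly, from 106 to 112 CPM in control to 122 to 139 CPM over the 6 DKO libraries (0.23 ± 0.0376, edgeR adjusted p = 1.23e-06).

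All 3 inhibitor genes rose in DKO. CDKN1B, the gene of p27, had 34.8, 36.6 and 35.8 CPM in control and 59.1 to 65.7 CPM over the 6 DKO libraries, with no overlap (0.81 ± 0.0493, edgeR adjusted p = 4.00e-17). CDKN2C, the gene of p18, had 12.7, 7.23 and 9.42 CPM in control, 21.1, 22.3 and 23.2 in DKO-C1 and 20.8, 22.6 and 20.4 in DKO-C2. The control libraries were more spread than the knockout libraries, yet the groups did not overlap, and the rise was 2.21-fold (log2 1.15 ± 0.102, edgeR adjusted p = 2.13e-12). CDKN2B, the gene of p15, rested on few reads, with 50 to 74 counts per control library. Its levels were 3.88, 2.74 and 3.53 CPM in control, 6.09, 7.09 and 4.73 in DKO-C1 and 6.40, 4.85 and 5.80 in DKO-C2, all DKO libraries being above control (0.78 ± 0.132, edgeR adjusted p = 3.08e-06). Every one of the 9 calls was also made in each DKO subline against control in the same fit, where 55.9% (DKO-C1) and 58.9% (DKO-C2) of tested genes were called in either direction. Between the sublines 0 of 10 genes were called by edgeR, where 3.67% of tested genes were higher and 5.75% lower in DKO-C1. CDK2 and CDK6 came nearest, at -0.12 ± 0.0427 (adjusted p = 0.0648) and -0.18 ± 0.0627 (adjusted p = 0.0713) in edgeR. DESeq2 (-0.13) and edgeR with a minimum of 5 CPM (-0.12) called CDK2 there, and edgeR called CDK6 without DKO-C2 replicate b (-0.23) or with no filter (-0.17). Leaving out DKO-C2 replicate b also brought a call of CDK4 as lower in DKO (-0.11).

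**Figure D2:**
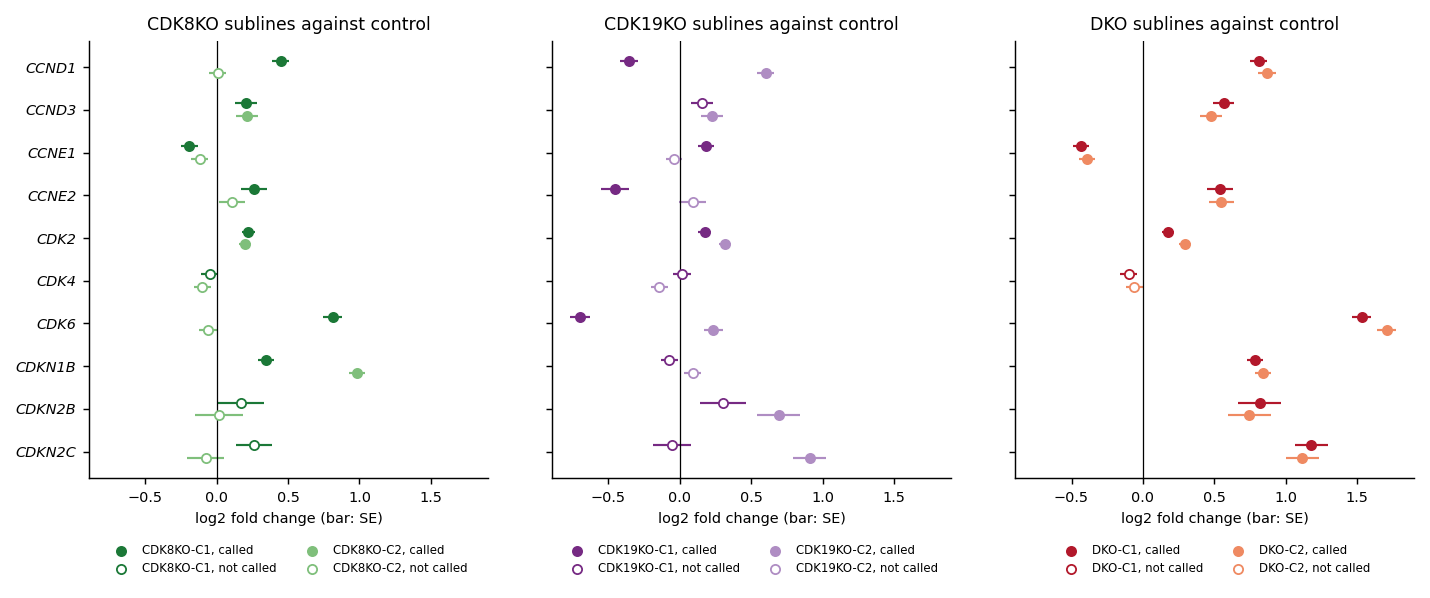
Log2 fold change against control (x axis) of the 10 genes in each subline of CDK8KO, CDK19KO and DKO, with bars for the SE and filled points for calls at an adjusted p under 0.05 in edgeR with TMM scaling. The paired points lie close together in DKO, where the same 9 genes were called in both sublines, and apart in CDK19KO, where CCND1 and CDK6 lie on opposite sides of 0. With the ERCC scaling all points of the single knockouts would move down, since the median gene shifts by -1.22 and -1.65.

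In CDK8KO, CCND1, CCND3, CDK2, CDK6 and CDKN1B rose and CCNE1 fell. Thus 5 of 10 genes were higher, where 19.5% of tested genes were, and 1 was lower, where 21% were. The median log2 fold change was 0.20 over the 10 genes and -0.02 over all tested genes. All genotype comparisons with control use the same 3 control libraries, so their values are set side by side only. With the ERCC scaling all 10 genes were called lower than control in CDK8KO and in CDK19KO, where 94.3% and 97.8% of tested genes were.

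CDKN1B had the largest change in CDK8KO, with 42.2, 46.8 and 47.1 CPM in CDK8KO-C1 and 72.6, 70.5 and 68.4 in CDK8KO-C2, against 34.8 to 36.6 in control. Both sublines were above control, and C2 was above every other library of the series. The mean of both sublines gave 0.66 ± 0.0495 (edgeR adjusted p = 1.71e-13). CDK6 gave 237, 233 and 239 CPM in CDK8KO-C1 but 116, 131 and 141 in CDK8KO-C2, against 125 to 146 in control. Its called rise (0.38 ± 0.0579, edgeR adjusted p = 1.82e-06) was thus a rise in C1 alone (0.81 ± 0.0656), with -0.06 ± 0.0666 in C2. CCND1 likewise gave 1234, 1251 and 1247 CPM in C1 and 919.5, 893 and 934 in C2, and its mean change was 0.23 ± 0.0525 (edgeR adjusted p = 0.000598), or 0.12 without control replicate 1.

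CCND3 (0.21 ± 0.0672) and CDK2 (0.21 ± 0.0376) rose by similar amounts in both CDK8KO sublines. CCND3 had 37.7 to 41.6 CPM there against 31.9 to 36.1 in control, and without control replicate 1 the change (0.16, edgeR adjusted p = 0.116) was not called. CCNE1 was slightly lower (-0.15 ± 0.0492, edgeR adjusted p = 0.0110), and without control replicate 2 it was not called (-0.11). CCNE2 (0.18 ± 0.0801), CDK4 (-0.07 ± 0.0522), CDKN2B (0.09 ± 0.143) and CDKN2C (0.09 ± 0.111) did not pass the test, though CDKN2C was called without control replicate 1 (0.32) and CCNE2 in a fit of only the libraries compared (0.19). By subline, 7 genes were called in CDK8KO-C1 and 3 in CDK8KO-C2, where 39.2% and 34% of tested genes were called in either direction. The genes called in both were CCND3, CDK2 and CDKN1B. The difference between the sublines was itself called for CCND1 (0.44 ± 0.0601, C1 over C2) and CDK6 (0.87 ± 0.0657) as higher, where 11.5% of tested genes were, and for CDKN1B (-0.64 ± 0.0540) as lower, where 9.63% were. CDKN2C passed the same test without CDK8KO-C1 replicate 3 (0.41) or CDK8KO-C2 replicate 1 (0.44), and with no filter or only the libraries compared (0.34 in each).

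In CDK19KO, the means of the sublines gave rises of CCND3, CDK2, CDKN2B and CDKN2C and a fall of CDK6. That is 4 of 10 higher, where 21% of tested genes were, and 1 lower, where 22% were, with a median of 0.10 over the 10 genes and -0.02 over all. The sublines differed in most of these genes, so the means lie between distant values. CDK6 had 92.4, 80.6 and 75.9 CPM in CDK19KO-C1 and 155, 163 and 157 in CDK19KO-C2, and control lay between them at 125 to 146. It fell in C1 (-0.70 ± 0.0684, edgeR adjusted p = 1.20e-10) and rose in C2 (0.23 ± 0.0661, edgeR adjusted p = 0.00408). CCND1 was split in the same way, at 712, 722 and 703 CPM in C1 and 1386, 1373 and 1392 in C2 around 767 to 1038 in control. It fell in C1 (-0.36 ± 0.0603) and rose in C2 (0.60 ± 0.0602), and the mean (0.12 ± 0.0523, edgeR adjusted p = 0.0553) was not called. It was called without control replicate 2 (0.23), with DESeq2 size factors (0.13) and with no filter (0.13).

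CDKN2C was called in CDK19KO-C2 and not in C1, with 19.0, 17.7 and 18.6 CPM there and 9.07, 9.08 and 10.2 in C1, which lay within the control range of 7.23 to 12.7. The values were 0.91 ± 0.117 in C2 and -0.05 ± 0.131 in C1. The mean of both sublines (0.43 ± 0.108, edgeR adjusted p = 0.00156) was 0.66 without control replicate 1 and 0.25, no longer called, without control replicate 2. CDKN2B gave 3.87, 4.57 and 4.12 CPM in C1 and 4.83, 5.78 and 5.83 in C2 (mean 0.50 ± 0.137, edgeR adjusted p = 0.00330), and lost its call without control replicate 2 (0.37). CDKN1B was not called in the mean (0.01 ± 0.0506, edgeR adjusted p = 0.911), with 33.6 to 40.5 CPM over the 6 libraries.

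CCNE1 was higher in CDK19KO-C1, at 84.0, 88.8 and 94.1 CPM, than in C2, at 72.6, 75.7 and 79.6, and CCNE2 was lower there, at 13.2, 10.9 and 11.6 CPM against 17.4, 15.9 and 18.6. In C1, CCNE1 rose (0.19 ± 0.0564) and CCNE2 fell (-0.45 ± 0.0988) against control, which are the opposite signs to those in DKO. The mean of both sublines for CCNE2 (-0.18 ± 0.0826) was not called, but was without CDK19KO-C1 replicate 1 (-0.22) and in a fit of only the libraries compared (-0.19). CDK2 was the gene called the same way in both CDK19KO sublines (0.17 ± 0.0432 and 0.32 ± 0.0430), and CCND3 (0.19 ± 0.0673) lost its call without control replicate 1, CDK19KO-C1 replicate 3 or CDK19KO-C2 replicate 2 (0.14 to 0.16). Against control, 5 genes were called in CDK19KO-C1 and 6 in CDK19KO-C2, where 46.1% and 42.4% of tested genes were called in either direction. Between the sublines, 9 of 10 genes were called, 2 higher in C1, where 23.8% of tested genes were, and 7 lower, where 24.2% were. The largest were CDKN2C (-0.96 ± 0.119), CCND1 (-0.96 ± 0.0606), CDK6 (-0.93 ± 0.0682) and CCNE2 (-0.54 ± 0.0982). The call of CDK4 (0.16) was lost without C1 replicate 3 or C2 replicate 3 (0.11 and 0.13), that of CDKN1B (-0.16) without C1 replicate 2 or 3 or C2 replicate 1 (-0.16 to -0.11), and that of CDKN2B (-0.39) without C1 replicate 1 or 3 or C2 replicate 2 or 3 (-0.38 to -0.33). With the ERCC scaling CCNE1 (-0.0038) and CDK4 (-0.06) were no longer higher in C1.

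The single knockouts were also compared with each other, which uses no control library. Relative to CDK19KO, CDK8KO had more CDKN1B (0.65 ± 0.0398), CDK6 (0.61 ± 0.0473), CCNE2 (0.37 ± 0.0668) and CCND1 (0.10 ± 0.0425), and less CDKN2B (-0.41 ± 0.110), CDKN2C (-0.34 ± 0.0875) and CCNE1 (-0.23 ± 0.0404). These were 4 of 10 higher, where 23.6% of tested genes were, and 3 lower, where 23.4% were. The CDKN1B difference was seen in both pairs of sublines, at 0.42 ± 0.0577 for C1 and 0.89 ± 0.0549 for C2. CDK6 was higher in CDK8KO for C1 (1.51 ± 0.0679) and lower for C2 (-0.29 ± 0.0663), and CCND1 was split likewise (0.80 ± 0.0605 and -0.60 ± 0.0602). CDKN2C had the opposite split, at 0.31 ± 0.127 for C1 and -0.99 ± 0.118 for C2. The labels give the sublines by number only, so C1 of one genotype has no stated tie to C1 of the other. The call of CCND1 was lost with DESeq2 (0.10) and when any library but CDK8KO-C2 replicate 2 was left out (0.10 to 0.11). The ERCC scaling shifted the median gene by 0.43 here, and CCNE1 (0.21), CDKN2B (0.02) and CDKN2C (0.09) were then not lower.

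With JQ1 in control cells, all 3 inhibitor genes, CCND3 and, by little, CDK6 rose, and CDK4 fell. In all 5 of 10 genes were higher, where 27% of tested genes were, and 1 lower, where 29.1% were, with a median of 0.12 over the 10 genes and -0.02 over all tested genes. CDKN2B had the largest response, from 3.88, 2.74 and 3.53 CPM to 8.93, 8.65 and 8.24 CPM, which was 2.54-fold (log2 1.34 ± 0.141, edgeR adjusted p = 2.82e-10). CCND3 went from 31.9 to 36.1 CPM to 61.7, 52.0 and 57.0 CPM (0.72 ± 0.0751, edgeR adjusted p = 2.38e-10). CDKN2C reached 17.7, 14.7 and 14.8 CPM (0.68 ± 0.121, edgeR adjusted p = 8.80e-06), and CDKN1B 44.0, 46.7 and 47.0 CPM (0.36 ± 0.0572, edgeR adjusted p = 1.39e-06). For these 4 genes every treated library was above every untreated one. The share of all tested genes that separate in this way was not computed.

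CDK4 went from 114, 123 and 122 CPM to 105, 92.5 and 97.7 CPM with JQ1, with no overlap (-0.28 ± 0.0611, edgeR adjusted p = 0.000149). CDK6 at 138, 157 and 157 CPM overlapped control, and its small change (0.16 ± 0.0664, edgeR adjusted p = 0.0367) was not called without control replicate 1 or 3 or without control+JQ1 replicate 2 or 3 (0.11 to 0.15). With all libraries kept, this change was not called with DESeq2 (0.16) or with a minimum of 5 CPM (0.15). CCND1 (0.08 ± 0.0601), CCNE1 (-0.08 ± 0.0571), CCNE2 (0.01 ± 0.0943) and CDK2 (-0.01 ± 0.0435) did not pass the test, though CCND1 was called without control replicate 2 (0.19). With the ERCC scaling CDKN2B (0.99) and CCND3 (0.35) were still higher and CDKN2C (0.33) was not called. CCNE1 (-0.45) and CDK2 (-0.38) were then called lower, and CDK4 (-0.65) stayed lower. CDK6 (-0.21) and CDKN1B (-0.01) lay below the untreated cells without a call.

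With JQ1 in DKO-C1, CDKN2B and CCND3 rose and CDK4, CDK6 and CDK2 fell. These are 2 of 10 higher, where 24.9% of tested genes were, and 3 lower, where 25.4% were, with a median of -0.11 over the 10 genes and -0.00482 over all tested genes. CDKN2B went from 6.09, 7.09 and 4.73 CPM to 11.1 and 12.1 CPM (0.96 ± 0.132, edgeR adjusted p = 1.27e-07), the highest level in the series. CCND3 reached 64.2 and 68.8 CPM (0.38 ± 0.0790, edgeR adjusted p = 0.000106), with the ERCC scaling 0.11 and not called. CDK6 went from 403, 390.2 and 373 CPM to 294 and 295 CPM (-0.40 ± 0.0713, edgeR adjusted p = 1.17e-05), still above every control library. CDK4 went from 106 to 121 CPM to 82.8 and 81.8 CPM (-0.44 ± 0.0697), and CDK2 from 122 to 126 CPM to 107 and 108 CPM (-0.20 ± 0.0485). CDKN1B was at 60.3 and 59.1 CPM (-0.05 ± 0.0594) and CDKN2C at 20.4 and 19.2 CPM (-0.16 ± 0.115), neither passing the test. CCNE1 (0.15 ± 0.0654) and CCNE2 (-0.19 ± 0.0968) did not pass it either. CCNE2 was called lower with the ERCC scaling (-0.46). CCNE1 passed without DKO-C1+JQ1 replicate a (0.21), CCNE2 without DKO-C1 replicate 2 (-0.27), and both in a fit of only the libraries compared (0.15 and -0.20).

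The difference of the responses, tested as an interaction, was called for 4 genes, all with a lower response in DKO-C1, where 4.7% of tested genes had a lower and 3.9% a higher one. CDKN2C differed most (-0.85 ± 0.167, edgeR adjusted p = 0.000541): it rose in control from about 9.78 to 15.7 CPM on average and did not pass the test in DKO-C1, where it averaged 22.2 CPM without JQ1. CDK6 (-0.56 ± 0.0973, edgeR adjusted p = 8.61e-05) had a small rise in control and a fall in DKO-C1. CDKN1B (-0.41 ± 0.0826, edgeR adjusted p = 0.000736) rose in control and averaged 61.7 CPM without and 59.7 CPM with JQ1 in DKO-C1. CCND3 (-0.34 ± 0.109, edgeR adjusted p = 0.0449) rose in both, less in DKO-C1, and its call was lost (-0.40 to -0.27) without control replicate 1 or 2, DKO-C1 replicate 3, control+JQ1 replicate 1 or 3, or either DKO-C1+JQ1 library. The last of these leaves 1 library in that group, which is then assumed to vary like the other groups. With all libraries kept, the CCND3 call was also lost with DESeq2 (-0.34) and with DESeq2 size factors in edgeR (-0.34). The median difference was -0.27 over the 10 genes and 0.03 over all tested genes. For CDKN2B the difference (-0.39 ± 0.196) did not pass the test, and CCNE1 (0.23 ± 0.0868) passed it without control replicate 1 (0.29). CDK2 (-0.19) passed it with a minimum of 5 CPM (-0.20), with only the libraries compared (-0.25) and with DESeq2 (-0.19). With the ERCC scaling 0 of 10 differences were called, where 0.483% of tested genes had a higher and 0.343% a lower response in DKO-C1. The values kept their sign for the 4 genes called with TMM scaling (-0.76 for CDKN2C, -0.46 for CDK6, -0.31 for CDKN1B and -0.24 for CCND3).

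**Figure D3:**
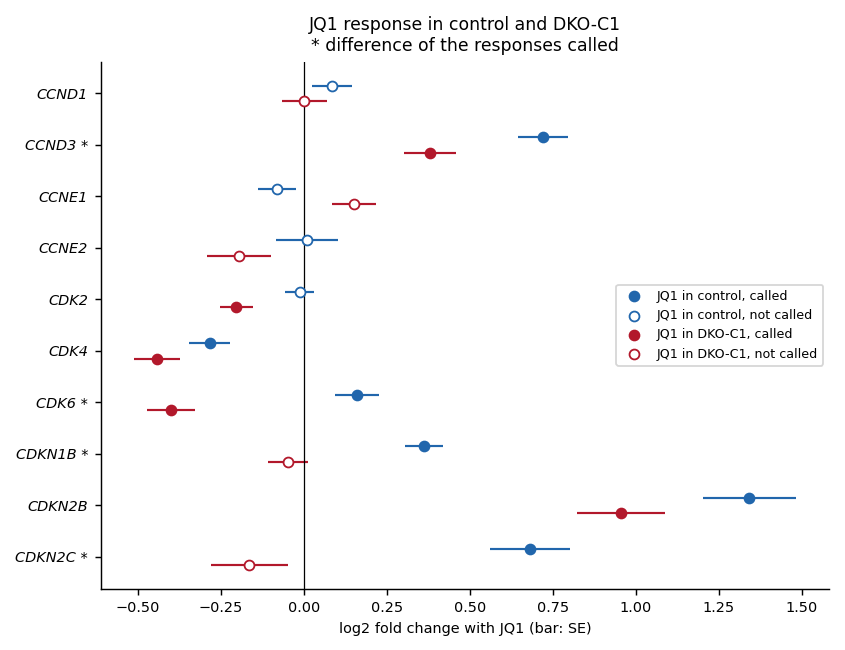
Log2 fold change with JQ1 (x axis) in control and in DKO-C1 for the 10 genes, with bars for the SE and filled points for calls in edgeR with TMM scaling. The points for CDK6, CDKN1B and CDKN2C lie to the right of 0 in control and to the left in DKO-C1, and CDKN2B and CCND3 lie to the right in both; with the ERCC scaling CDK6 and CDKN1B in control lie to the left of 0 as well.

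Under JQ1, DKO-C1 still differed from control in 9 of 10 genes, 7 higher, where 24.3% of tested genes were, and 2 lower, where 22.4% were. CDK6 (0.97 ± 0.0714) and CCND1 (0.73 ± 0.0662) led, at 294 and 295 CPM against 138 to 157, and at 1613 and 1587 CPM against 915 to 1054. CDKN2B (0.43 ± 0.126), CDKN1B (0.38 ± 0.0607), CCNE2 (0.33 ± 0.102), CDKN2C (0.33 ± 0.121) and CCND3 (0.22 ± 0.0790) were also higher. CDK4 (-0.26 ± 0.0701) and CCNE1 (-0.20 ± 0.0650) were lower. Apart from CCND1, CDK6, CDKN1B and CDK4, each of these calls was lost in at least 1 fit that left out a single library: without DKO-C1+JQ1 replicate a for CCND3 (0.17), CCNE1 (-0.15) and CDKN2B (0.36), and without DKO-C1+JQ1 replicate 1 for CCNE2 (0.31) and CDKN2C (0.28). These fits too had 1 DKO-C1+JQ1 library, and the values moved by less than their SE. Leaving out control+JQ1 replicate 1 ended the calls of CCNE1 (-0.16) and CCNE2 (0.25), replicate 2 those of CCND3 (0.16) and CDKN2C (0.28), and replicate 3 that of CDKN2C (0.29). The ERCC scaling shifted the median gene by -0.91 here, left CDK6 at 0.06 and put the other 6 rises below control, CCND1 (-0.18) without a call. It also brought a call of CDK2 as lower (-0.93).

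Ratios of counts between related genes within a library do not depend on how libraries are scaled. The ratio of CDK4 to CDK6 counts was 0.915, 0.847 and 0.916 in control. It was 0.263 to 0.324 in DKO-C1, 0.241 to 0.307 in DKO-C2 and 0.277 to 0.281 in DKO-C1+JQ1, the lowest values in the series. CDK8KO-C1 (0.475 to 0.519) was also below control, CDK8KO-C2 (0.739 to 0.997) overlapped it, CDK19KO-C1 (1.24 to 1.71) was above it and CDK19KO-C2 (0.653 to 0.718) below it. Control+JQ1 was at 0.589 to 0.766. The ratio of CCNE1 to CCNE2 was 4.42 to 5.26 in control, 2.23 to 2.72 in DKO-C1, 2.18 to 3.04 in DKO-C2 and 6.35 to 8.17 in CDK19KO-C1, with no overlap among control, DKO and CDK19KO-C1. CDK8KO-C1 (3.31 to 3.65) and CDK8KO-C2 (3.95 to 4.27) were also below control, and CDK19KO-C2 (4.17 to 4.76) overlapped it. How reads from bases shared with genes on the opposite strand entered the counts of CCNE2 and CDK4 is not known. The ratio of CCND1 to CCND3 was 24.0 to 29.1 in control and 15.1 to 18.5 in control+JQ1, and 29.4 to 32.8 in DKO-C1 and 23.1 to 25.1 in DKO-C1+JQ1, so it was lower with JQ1 in both. The ratio of CDKN2B to CDKN2C was 0.306 to 0.379 in control and 0.503 to 0.589 in control+JQ1, and 0.204 to 0.319 in DKO-C1 and 0.542 to 0.633 in DKO-C1+JQ1. The treated libraries had the highest values of this ratio in the series, although the lowest of them and the highest library of CDK19KO-C1 were both at 0.503.

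**Figure D4:**
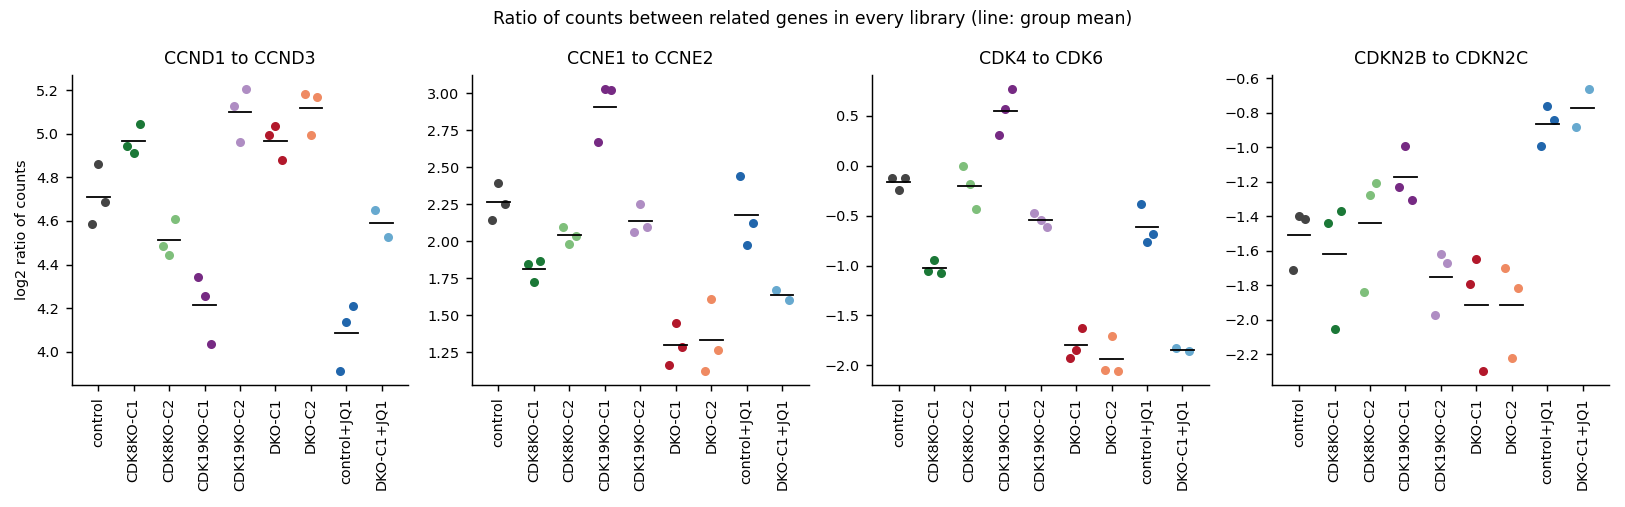
Log2 ratio of counts (y axis, not starting at 0) between related genes in all 26 libraries, with 1 point per library and a line at the group mean. DKO libraries with and without JQ1 have the lowest CDK4 to CDK6 ratio, and JQ1 libraries the highest CDKN2B to CDKN2C ratio.

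Other G1 regulators did not follow one direction. Of 16 such genes 15 were tested, CCND2 being too low, and in DKO 5 were higher and 6 lower, with a median of -0.04, where 29.5% and 32.1% of tested genes were. CKS1B, which encodes a cofactor of the ubiquitin ligase that removes p27, had the largest rise (1.82 ± 0.0627), though 8.82% of its 50-base words also occur in another gene, mostly the pseudogene CKS1BP3. The inhibitor genes CDKN1C (1.03 ± 0.110) and CDKN2D (0.83 ± 0.0916) rose as well, so the INK4 member CDKN2D moved as CDKN2B and CDKN2C did. The INK4 gene CDKN2A changed less, with 44.8 to 47.3 CPM in control, 48.9 to 50.1 in DKO-C1 and 48.8 to 61.9 in DKO-C2. In CDK19KO 9 were higher and 1 lower, where 21% and 22% of tested genes were, led by CDKN1A, the gene of p21 (1.38 ± 0.0530). CDKN1A had 504 to 566 CPM in CDK19KO-C1 and 176 to 186 CPM in CDK19KO-C2, against 112 to 128 CPM in control. Over the DKO libraries it had 99.7 to 127 CPM, which overlapped control. In CDK8KO 3 were higher and 2 lower, where 19.5% and 21% of tested genes were, with CDKN1C (0.64 ± 0.115) first. JQ1 gave 7 higher and 3 lower in control, where 27% and 29.1% of tested genes were, and 7 higher and 2 lower in DKO-C1, where 24.9% and 25.4% were. CDKN2D (1.25 ± 0.100) and CDKN1A (0.73 ± 0.0586) rose with JQ1 in control, and CDKN1A (1.37 ± 0.0640) and CDKN1C (1.29 ± 0.106) in DKO-C1. CDKN2A was lower with JQ1, at 35.4, 32.4 and 32.7 CPM in control+JQ1 and at 42.3 and 44.8 CPM in DKO-C1+JQ1. The response of CDKN1A (0.64 ± 0.0870) and CDKN1C (0.57 ± 0.171) was larger in DKO-C1, against the smaller ones of CDKN1B and CDKN2C.

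Of the 11 pocket protein and E2F genes, which act downstream of the G1 kinases, 4 were higher and 4 lower in DKO, where 29.5% and 32.1% of tested genes were. In CDK8KO 4 were higher and 3 lower, where 19.5% and 21% were, and in CDK19KO 3 and 2, where 21% and 22% were. The counts in DKO and CDK19KO lie near those shares. RB1, the retinoblastoma gene, rose in DKO (0.45 ± 0.0597) and with JQ1 in control (0.56 ± 0.0678), while E2F5 (-0.68 ± 0.0705) and TFDP2 (-0.47 ± 0.0551), which encodes a dimer partner of E2Fs, fell in DKO. E2F1 rose in CDK8KO (0.39 ± 0.0465) and CDK19KO (0.43 ± 0.0465), and RBL2, a relative of RB1, fell in both (-0.34 ± 0.0624 and -0.56 ± 0.0633). RBL2 had 22.0 to 23.9 CPM in CDK8KO-C1, while CDK8KO-C2 at 28.4 to 30.6 CPM overlapped control at 29.7 to 35.3 CPM. With JQ1, 8 of the 11 fell and 2 rose in control, where 29.1% of tested genes fell and 27% rose, and 5 fell and 2 rose in DKO-C1, where 25.4% and 24.9% did. E2F2, an activating E2F, fell most, from 45.9 to 48.9 CPM in control to 18.5 to 21.0 CPM (-1.26 ± 0.0741) and in DKO-C1 to 18.1 and 18.6 CPM (-1.08 ± 0.0860). All values in these paragraphs on other regulators are log2 fold changes with TMM scaling in edgeR, and the shifts of the ERCC scaling given above apply to them too.

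Over the 9 group means the 10 genes did not form one pattern. CDK6 spanned 2.41 on the log2 CPM scale, from CDK19KO-C1 to DKO-C2, a wider range than 83.5% of tested genes, and CDK2 spanned 0.34, wider than 5.07%. CCND1, CCNE2 and CDK6 were all lowest in CDK19KO-C1 and highest in DKO-C2. As a description over the 9 means, which include related sublines, Pearson's r was 0.93 between CCND1 and CDK6, 0.96 between CCNE2 and CDK6 and -0.97 between CCNE1 and CDK6. CCND3 and CDKN2B, both highest in DKO-C1+JQ1 and lowest in control, had r = 0.95. Among 10794 other genes, the profile most like that of CDK6 was HEG1 (r = 0.98), which encodes a membrane protein and spanned 4.09, followed by SIPA1L3 (r = 0.98). The nearest to CDKN2C was MYBL1 (r = 0.98), a MYB family transcription factor gene, to CCND1 it was CBL (r = 0.98), a ubiquitin ligase gene, and to CCNE2 it was SAMD4A (r = 0.99), which encodes an RNA-binding protein. The nearest profiles were STX3 for CCND3 (r = 0.99), TMEM203 for CCNE1 (r = 0.99), NRBP2 for CDK2 (r = 0.96), NUP88 for CDK4 (r = 0.97), LPCAT2 for CDKN1B (r = 0.95) and CDS2 for CDKN2B (r = 0.98). These are the highest values out of all those genes, over 9 points.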

How the data were processed

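Total RNA of 26 HCT116 libraries was sequenced as paired reads. Per the submitters' processing notes, the authors used STAR 2.5.2 on build hg38 and featureCounts of Subread 1.6.3. What they deposited is a table of raw counts, with a row for each gene and ERCC transcript. Neither strand setting nor annotation release is given in the sources used here. Of the columns, 22 were matched to 1 sample and 4 to a group only, and 0 were left unused.

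Counts were fitted with edgeR 4.0.16 (R 4.3.3), as a quasi-likelihood model of all 26 libraries with TMM factors (0.956 to 1.02). The filterByExpr step (minimum count 10, minimum total 15) left 17198 genes. SEs are derived from the F statistic. The replicate numbers were not taken as pairs, since the labels tie them to nothing. Knockout values are means of 2 sublines. The genes and lists were chosen with earlier results of these data known. Named are the 10 genes, CDK8, CDK19 and HEXIM1, up to 3 called genes of at least 5 CPM with the largest changes per list and comparison, and the 2 most similar profiles per gene over genes above 5 CPM. Of those profiles, mostly the first is printed. CDKN2A is named as well, as another INK4 gene.

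Gene lengths and exon overlaps are from GENCODE release 29, and promoters from RefSeq (GRCh38.p14). No 2 libraries of a group were as close as counting alone (chi-square per degree of freedom 1.38 to 11.9 over 25 pairs). Alternatives were DESeq2 size factors, DESeq2 1.42.0, ERCC factors, 2 other filters, a replicate block, fits of only the compared libraries, fits with 1 library removed, contrasts of single sublines and, added after seeing the data, the libraries of the block without the block. The method was tested on simulated data. Promoters of CCND1 and CDK2 were not used here, and no sequence of CCNE2 is reported.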

Additional observations from a re-analysis of the deposited data

Results flagged for a closer look

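For 4 genes the log2 response to JQ1 differed between DKO-C1 and control by the interaction test in edgeR: CDKN2C (-0.85), CDK6 (-0.56), CDKN1B (-0.41) and CCND3 (-0.34). The CCND3 difference lost its call without control replicate 1 or 2, among others, and with DESeq2 or DESeq2 size factors (-0.34 in each). DKO-C1+JQ1 had 2 libraries and each other group 3. Leaving out either treated DKO-C1 library leaves 1, assumed to vary like the other groups, and gave -0.30 or -0.40 for CCND3. With ERCC scaling none of the 4 was called, where 0.483% of tested genes were called higher and 0.343% lower.

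The sublines of a single knockout differed from each other, which a test of each difference showed. In CDK8KO these genes were CCND1 (0.44, C1 over C2), CDK6 (0.87) and CDKN1B (-0.64). In CDK19KO they were CCND1 (-0.96), CCNE1 (0.23), CCNE2 (-0.54), CDK2 (-0.14), CDK4 (0.16), CDK6 (-0.93), CDKN1B (-0.16), CDKN2B (-0.39) and CDKN2C (-0.96). In DKO, 0 of 10 genes were called between the sublines by edgeR.

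The 12 single knockout libraries, whose labels name no spike-in, held ERCC counts at a median of 3.20% of gene counts, above the 1.055% to 1.252% of the control libraries, whose labels name one.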

How the results depend on the processing

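Most alternatives gave 110 values, 10 genes in 11 comparisons. The replicate block gave 90, with 10 more for DKO-C1 alone, and each single subline 40. A value counted as kept when a called gene stayed called with its sign, or an uncalled gene stayed uncalled, whatever its sign. Of the 110, 107 were kept with DESeq2 size factors, 103 with DESeq2, 105 without the filter, 107 with a minimum of 5 CPM and 104 with only the libraries compared. None of those settings reversed one. Leaving out a library kept 781 of 840, ended 48 calls, brought 11 and reversed 0.

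A called gene counted as reversed when its sign changed, whether or not the new value was called. An uncalled gene counted as reversed when it was called with the other sign. ERCC scaling kept 56 and reversed 36, in log2 units. For CDK8KO these were CCND1 -0.999, CCND3 -1.01, CCNE2 -1.03, CDK2 -1.01, CDK6 -0.84, CDKN1B -0.56, CDKN2B -1.12 and CDKN2C -1.12. For CDK19KO they were CCND1 -1.53, CCND3 -1.47, CCNE1 -1.58, CDK2 -1.40, CDKN1B -1.65, CDKN2B -1.14 and CDKN2C -1.21. For DKO they were CCND1 -0.069, CCND3 -0.38, CCNE2 -0.36, CDK2 -0.66, CDKN1B -0.091 and CDKN2B -0.12, with CCND1, CDKN1B and CDKN2B not called. For CDK8KO against CDK19KO they were CCNE1 0.21, CDK2 0.40, CDK4 0.43, CDKN2B 0.024 and CDKN2C 0.092, with CCNE1, CDKN2B and CDKN2C not called. Between CDK19KO sublines they were CCNE1 -0.0038 and CDK4 -0.065, and for JQ1 in control CDK6 -0.21 and CDKN1B -0.0059, with none of these called. For DKO-C1 against control under JQ1 they were CCND1 -0.18, CCND3 -0.69, CCNE2 -0.58, CDKN1B -0.53, CDKN2B -0.49 and CDKN2C -0.58, with CCND1 not called. Another 9 calls ended and 9 were new. New calls of CDK4 were -1.29 in CDK8KO, -1.72 in CDK19KO and -0.98 in DKO. CCNE2 was newly called in CDK19KO (-1.83) and for JQ1 in DKO-C1 (-0.46). For JQ1 in control CCNE1 (-0.45) and CDK2 (-0.38) were. The rest were CCND3 in CDK8KO against CDK19KO (0.46) and CDK2 in DKO-C1 against control under JQ1 (-0.93). With ERCC scaling 10 genes were called (all lower) in CDK8KO and 10 in CDK19KO, where 94.3% and 97.8% of tested genes were lower. For the difference of JQ1 responses 0 were called, where 0.483% of tested genes were called higher and 0.343% lower. The cause was not tested.

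With C2 alone, CDK6 was -0.057 in CDK8KO, where 3 genes were called, and 0.23 in CDK19KO, and in CDK8KO against CDK19KO CCND1 was -0.60 and CDK6 -0.29. With C1 alone, CCND1 was -0.36 and CDKN2C -0.054 in CDK19KO, and CDKN2C was 0.31 in CDK8KO against CDK19KO. These are contrasts within the fit of all 26 libraries. Between DKO sublines 1 gene was called without the filter, with 5 CPM, with DESeq2 and without DKO-C2 replicate b.

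Same-numbered libraries did not deviate together (median r -0.0187, range -0.281 to 0.324 over 70 pairs, against 0.00644 for other numbers). With the number as a replicate block, 7 genes were called in CDK8KO, 6 in CDK19KO, 9 in DKO-C1, 7 between single knockouts, 3 and 8 between sublines, 6 for JQ1 in control and 6 in DKO-C1, 4 for the difference and 5 for DKO-C1 against control under JQ1. The block used only libraries whose column was matched to a single sample. The DKO-C2 libraries and 1 of the 2 of DKO-C1+JQ1, matched to a group only, did not enter, and the numbers in their column names were not used. In 3 comparisons DKO-C1+JQ1 was thus 1 library, assumed to vary like the other groups. The same libraries without the block, an alternative chosen after seeing the data, gave 6 calls for JQ1 in DKO-C1, 4 for the difference and 6 for DKO-C1 against control under JQ1, where the fit of all libraries gave 9. Between DKO sublines no paired analysis was possible because the DKO-C2 columns were matched to the group only.

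With single libraries left out, the genes called ran from 5 to 6 in CDK8KO, 4 to 6 in CDK19KO, 9 to 10 in DKO, 6 to 7 between single knockouts, 3 to 4 and 6 to 8 between CDK8KO and CDK19KO sublines, 0 to 1 between DKO sublines, 5 to 7 and 5 to 6 for JQ1 in control and DKO-C1, 3 to 4 for the difference and 6 to 8 under JQ1. Depth limits CDKN2B most, with 50 to 74 counts per control library.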
